A study of Homo sapiens with 6 samples.

Results

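The genes described here belong to bone morphogenetic protein (BMP) and TGF-beta signalling and were measured in HCT116, a cell line from a colorectal cancer. They are BMP4, BMPR2, TGFBR2, SMAD1, SMAD5, SMAD6, SMAD7, ID1, ID2 and ID3, and their rows were found by symbol in the deposited tables. These 10 genes stand among 19871 gene symbols in the tables, and all 10 were among the 11907 genes whose counts averaged 50 or more over the 3 groups, which are called the genes tested. Their counts were spread over 49 transcripts, of which 42 carry an Ensembl identifier and 7 were assembled by the authors from the reads. In every group, 9 of the 49 were listed at 0.

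Total RNA was sequenced in 3 groups of 2 libraries: NC, GAS5 and siYAP. According to the labels, HCT116 cells were transfected with a plasmid carrying the long non-coding RNA GAS5 or with siRNA against YAP, the transcriptional co-activator encoded by YAP1. The labels list all 3 groups under siRNA, and what the NC cells received, which YAP siRNA was used and how long after transfection the RNA was taken are not given in the sources used here. A difference between either treatment and NC therefore cannot be told apart from one between what was delivered to each group. The tables hold 1 value per group, the authors' mean over its libraries, with no SD. No spread between cultures could be computed, no test was possible, and each value below is that of a group mean. The intervals given are exact 95% Clopper-Pearson intervals on the counts behind the means and cover counting error only.

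BMP ligands are secreted dimers that bring together type I and type II receptor kinases at the cell surface, and BMPR2 is a type II receptor. The receptors phosphorylate SMAD1, SMAD5 and SMAD9, which join SMAD4 in the nucleus and switch on genes such as ID1, ID2 and ID3. SMAD6 and SMAD7 are inhibitory SMADs, are themselves targets of the pathway and act back on it. In the normal colon, BMP signalling is strongest towards the differentiated surface of the epithelium, and TGF-beta, the related branch read through TGFBR2, restrains growth. HCT116 cells are mismatch repair deficient and known for truncating changes in TGFBR2, which RNA counts do not show.

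Summed over all transcripts, the depth was 27206123 counts per library for NC, 25521577 for GAS5 and 26298036 for siYAP. Counts were scaled between groups by TMM, a method that centres most genes on no change. YAP1, the target of the siRNA, had mean counts of 3480 in NC, 2679 in GAS5 and 1444 in siYAP, a log2 fold change of -1.18 in siYAP (-1.24 to -1.12) and -0.26 in GAS5. CTGF and CYR61, widely used YAP target genes, were not lower in siYAP, with log2 fold changes of 0.17 and 0.29, and in GAS5 they stood at 0.72 and 1.09. The GAS5 transcript is not listed among these mRNAs. Epithelial markers were present, all 6 of 6 among the genes tested, and their summed level was 5510 CPM (counts scaled to library size) in NC, 6382 in GAS5 and 7567 in siYAP. Markers of fibroblasts summed to between 14.3 and 22.2 CPM, nearly all of it COL1A1, with DCN and LUM at 0. Endothelial markers summed to between 1.18 and 1.89 CPM, and leukocyte markers to between 7.38 and 11.1 CPM, nearly all of it CD68, with PTPRC at 0. In bulk RNA, fewer cells of a kind and less RNA per cell cannot be told apart.

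ID1 was by far the most abundant of the genes when levels were set per transcript length (FPKM, fragments corrected for length and depth). Its level was 444 FPKM in NC, 448 in GAS5 and 560 in siYAP, above that of 98.6% of the genes tested in NC. ID3 followed with 139, 158 and 172 FPKM, BMP4 with 84.9, 82.4 and 78.1 FPKM, and ID2 with 59.7, 50.5 and 81.2 FPKM, so that ID2 stood below BMP4 in NC and GAS5 and above it in siYAP. The signalling SMADs and the receptors were in the middle of the range, with SMAD5 at 24.6, SMAD1 at 13.4, TGFBR2 at 8.18 and BMPR2 at 6.74 FPKM in NC. The inhibitory SMADs were lowest, with SMAD7 at 2.65 and SMAD6 at 2.41 FPKM in NC, which was above 13.4% and 11.8% of the genes tested. The order of SMAD7 and SMAD6 and that of TGFBR2 and BMPR2 rest on small gaps for which no spread between libraries is known.

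**Figure D1:**
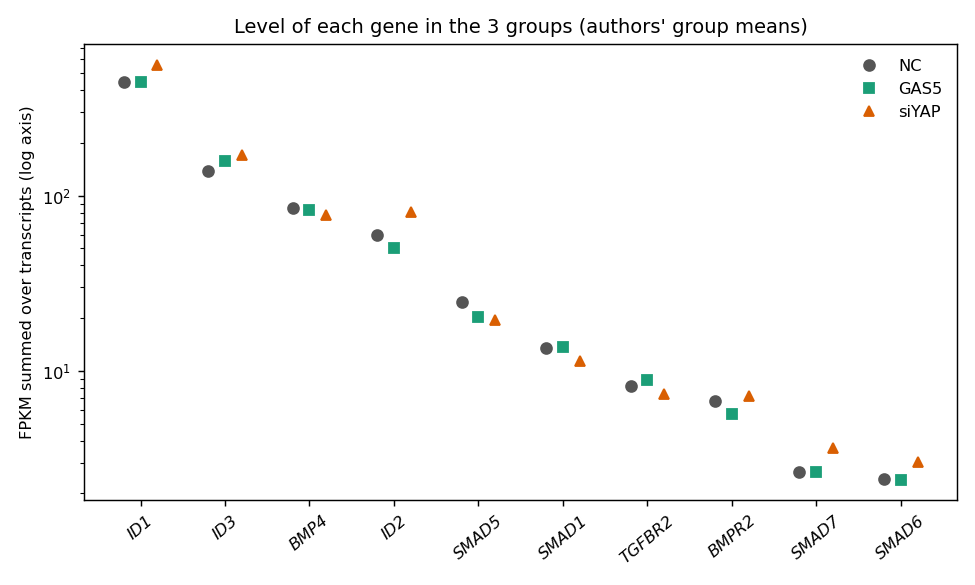
Level of each of the 10 genes in NC (circles), GAS5 (squares) and siYAP (triangles), as FPKM summed over the transcripts of a gene, on a log axis. Each point is the authors' mean of a group and has no error bar. ID1 stands highest, between 444 and 560 FPKM, and SMAD6 and SMAD7 stand lowest, between 2.40 and 3.61 FPKM.

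The ligand and receptor genes differed little between groups. BMP4 (14:53949736-53958761, minus strand, GRCh38, as are all gene positions given here) encodes a secreted ligand. Its mean counts were 4112.5 in NC, 3791.5 in GAS5 and 3655.5 in siYAP, or 149, 149 and 141 CPM after scaling. The log2 fold change was 0.00 in GAS5 (-0.04 to 0.05) and -0.08 in siYAP (-0.13 to -0.03), so that both differences were small against those of most genes, of which the middle 50% lay between -0.16 and 0.16 in GAS5 and between -0.21 and 0.20 in siYAP.

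BMPR2 (2:202376936-202567751, plus strand) had 46.9 CPM in NC, 40.8 in GAS5 and 52.8 in siYAP. It stood lower than NC in GAS5, at a log2 fold change of -0.20 (-0.28 to -0.12), and higher in siYAP, at 0.17 (0.09 to 0.25). With Ensembl transcripts only these values were -0.32 and 0.06, the assembled transcript holding between 30.2% and 35.6% of the counts. TGFBR2 (3:30606502-30694142, plus strand), the type II receptor for TGF-beta, went the other way, with 38.0 CPM in NC, 42.0 in GAS5 and 35.4 in siYAP. On the log2 scale it differed by 0.14 in GAS5 (0.06 to 0.23) and by -0.10 in siYAP (-0.19 to -0.01).

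SMAD5 was lower than NC in both treatments and SMAD1 in siYAP. SMAD5 (5:136132845-136188747, plus strand) had mean counts of 2376.5 in NC, 1857.5 in GAS5 and 1774.5 in siYAP, or 86.1, 73.2 and 68.5 CPM. The log2 fold change was -0.24 in GAS5 (-0.30 to -0.17) and -0.33 in siYAP (-0.39 to -0.27), the lowest of the 10 genes in each comparison. SMAD1 (4:145481194-145558079, plus strand) had 28.98 CPM in NC, 30.2 in GAS5 and 25.2 in siYAP, with log2 fold changes of 0.06 (-0.04 to 0.16) and -0.20 (-0.31 to -0.10). Both genes encode the SMADs that BMP receptors phosphorylate, and phosphorylation is not read by RNA.

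The inhibitory SMADs were higher in siYAP and level with NC in GAS5. SMAD6 (15:66702228-66782848, plus strand), which acts mainly on BMP signalling, had mean counts of 445 in NC, 408.5 in GAS5 and 628 in siYAP, or 16.1, 16.1 and 24.2 CPM. The siYAP group alone was high. Its log2 fold change was 0.59 (0.46 to 0.71), which lay on the 1.5-fold threshold used here and above the values of 97.1% of the genes tested, and in GAS5 it was -0.00 (-0.14 to 0.14). SMAD7 (18:48919853-48952052, minus strand), which acts on the BMP and TGF-beta branches alike, had mean counts of 176.5, 158 and 225.5, or 6.40, 6.22 and 8.70 CPM. Its log2 fold change was 0.44 in siYAP (0.24 to 0.65) and -0.04 in GAS5 (-0.26 to 0.18). Transcripts assembled by the authors held 94.9% of the SMAD6 counts and 78.4% of the SMAD7 counts in NC. With Ensembl transcripts only, the siYAP values were 0.13 for SMAD6 and 1.11 for SMAD7, and the GAS5 values were -0.52 and 0.27, so that the size of both differences rests on which transcripts are counted.

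The ID genes encode helix-loop-helix proteins without a DNA-binding region, which bind E proteins such as TCF3 and keep them from DNA. All 3 were higher in siYAP than in NC, and they parted in GAS5. ID1 (20:31605283-31606515, plus strand) had mean counts of 12320.5 in NC, 11744.5 in GAS5 and 15075 in siYAP, or 447, 463 and 582 CPM. The siYAP value stood above both others, at a log2 fold change of 0.38 (0.36 to 0.41), while that of GAS5 was 0.05 (0.03 to 0.08).

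ID2 (2:8678845-8684453, plus strand) had mean counts of 2248.5, 1794.5 and 2966, or 81.5, 70.7 and 114 CPM. GAS5 was the lowest and siYAP the highest group, with log2 fold changes of -0.20 (-0.27 to -0.14) and 0.49 (0.43 to 0.55). ID3 (1:23557918-23559794, minus strand) had mean counts of 4828, 5142.5 and 5753.5, or 175, 203 and 222 CPM, and stood higher than NC in both treatments, at 0.21 in GAS5 (0.17 to 0.25) and 0.34 in siYAP (0.30 to 0.38). The siYAP values of ID1, ID2 and ID3 lay above those of 90.2%, 94.7% and 87.6% of the genes tested. The counts behind the ID genes were high enough for narrow intervals, but these do not hold the spread between cultures.

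**Figure D2:**
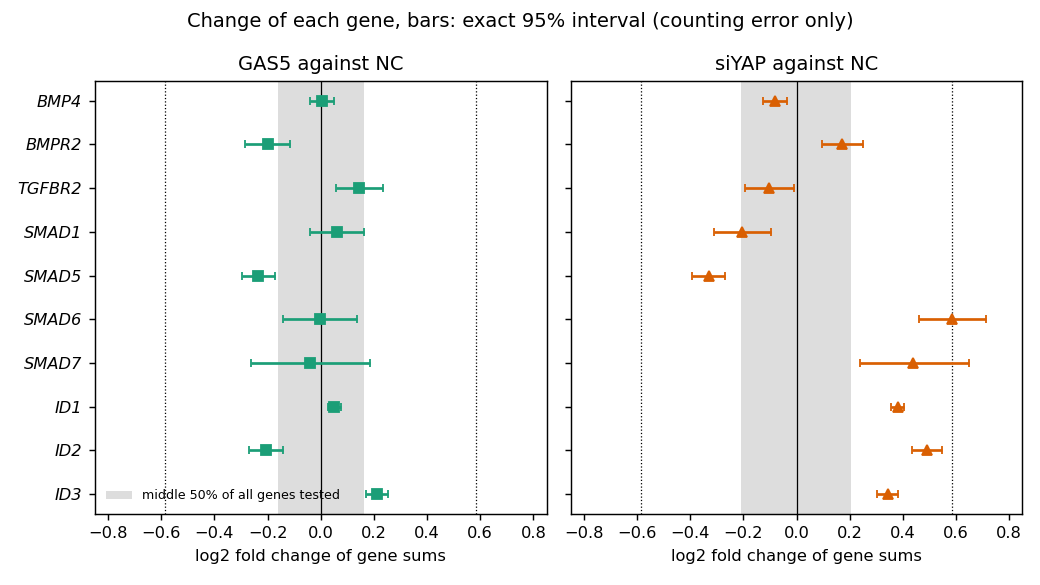
Log2 fold change of each of the 10 genes against NC, in GAS5 (left) and siYAP (right), with bars for the exact 95% interval of counting error, grey bands for the middle 50% of all genes tested and dotted lines at 1.5-fold. In siYAP the points of SMAD6, SMAD7, ID1, ID2 and ID3 lie right of the grey band, from 0.34 to 0.59, and in GAS5 only ID3 does.

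Of the 10 genes, 0 were past 1.5-fold in GAS5, where 4.54% of the genes tested were, and 1 was in siYAP, namely SMAD6, where 7.13% were. Past 2-fold, the count was 0 in both comparisons, against 1.07% of the genes tested in GAS5 and 0.840% in siYAP. Above 0 were 5 of the 10 genes in GAS5, with 50.2% of the genes tested, and 6 in siYAP, with 49.95%. The median log2 fold change of the 10 genes was -0.00 in GAS5 and 0.26 in siYAP, and that of all genes tested was 0.00 and -0.00. These shares are close to the background, and with 10 genes a count of 0 or 1 cannot be set apart from it. In GAS5 the interval of counting error lay above 0 for 3 genes and below 0 for 3. In siYAP it lay above 0 for 6 and below 0 for 4. The same shares over all genes tested were not computed, so these counts do not set the 10 genes apart. Such intervals narrow as counts rise and leave out the spread between cultures. Both comparisons use the same NC means. Of the genes past 1.5-fold in siYAP, 41.2% were higher than in NC, a split that was 30.0% with scaling by total counts and 31.9% with the ratio of FPKM. Under total counts SMAD6 was no longer past 1.5-fold, and the signs of the 10 siYAP values were unchanged.

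The promoters of the genes that stood highest in siYAP are printed here so that their sequence can be read beside the values. They are the 250 bases before the start site in the RefSeq promoter table (GRCh38.p14), for SMAD6 (chr15:66701986-66702235, plus strand), ID1 (chr20:31605039-31605288, plus strand), ID2 (chr2:8681806-8682055, plus strand) and ID3 (chr1:23559502-23559751, minus strand), and SMAD7, with 3 start sites, is left out. Nearly all SMAD6 counts came from an assembled transcript whose start is not given in the sources used here, so that its window may not be the promoter of the transcript that was counted. Each is written from 5′ to 3′ along the gene, and capitals mark a match to one of the motifs searched.
SMAD6: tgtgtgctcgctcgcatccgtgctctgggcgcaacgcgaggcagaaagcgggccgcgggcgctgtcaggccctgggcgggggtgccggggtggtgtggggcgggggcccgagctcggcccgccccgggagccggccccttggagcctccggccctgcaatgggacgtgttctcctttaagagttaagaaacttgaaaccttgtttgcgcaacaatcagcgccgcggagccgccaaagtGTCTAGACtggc
ID1: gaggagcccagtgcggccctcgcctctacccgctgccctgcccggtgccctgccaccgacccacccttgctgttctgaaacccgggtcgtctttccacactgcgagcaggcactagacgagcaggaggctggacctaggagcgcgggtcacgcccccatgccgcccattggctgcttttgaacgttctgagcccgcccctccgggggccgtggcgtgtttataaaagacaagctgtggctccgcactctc
ID2: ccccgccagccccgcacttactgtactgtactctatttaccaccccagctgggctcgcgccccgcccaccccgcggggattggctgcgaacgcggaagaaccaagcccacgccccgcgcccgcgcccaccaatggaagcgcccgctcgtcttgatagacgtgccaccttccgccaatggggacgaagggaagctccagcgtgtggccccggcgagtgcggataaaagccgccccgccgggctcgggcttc
ID3: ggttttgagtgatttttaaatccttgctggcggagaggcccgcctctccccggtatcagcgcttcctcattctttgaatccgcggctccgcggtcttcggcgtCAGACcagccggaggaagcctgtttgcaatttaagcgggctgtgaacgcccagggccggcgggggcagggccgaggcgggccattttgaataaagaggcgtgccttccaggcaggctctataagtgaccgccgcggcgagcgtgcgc

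Motifs were searched on both strands. They were GGAATG, the core bound by the TEAD factors through which YAP acts, GGCGCC, a GC-rich element linked to BMP SMADs, CAGAC, the SMAD-binding core, and GTCTAGAC, the SMAD-binding palindrome, which was added after the sequences had been read. GTCTAGAC contains neither CAGAC nor its reverse complement GTCTG, so that a match to it is not counted under CAGAC as well. Among 35116 promoter windows of the same length, 11.9% held GGAATG, 16.4% GGCGCC, 38.0% CAGAC and 0.182% GTCTAGAC, the last in 64 windows. The SMAD6 window held GTCTAGAC once, 12 bases before the start, and the ID3 window held CAGAC once, 147 bases before the start. In the ID1 and ID2 windows none of these letters were found. SMAD5 had GGAATG once, 203 bases before its start, and the BMPR2 window held GGCGCC once and CAGAC at 2 places. Genes with several start sites also held matches, with GGCGCC in windows of BMP4 and SMAD1 and CAGAC in windows of BMP4, SMAD1 and SMAD7, and the TGFBR2 windows held none. A match is a run of letters and does not show that a factor binds there.

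Single transcripts differed between groups more than the gene sums did. Of 28 transcripts with at least 20 mean counts in some group, 9 were past 2-fold in either comparison, 5 in GAS5 and 8 in siYAP. Among 37706 transcripts of all genes with the same minimum, 28.96% were past 2-fold in either comparison, 18.8% in GAS5 and 19.8% in siYAP, so that a large share of transcripts differed this much in the tables at large. Transcript counts are estimates that divide reads between overlapping transcripts, and the counts of neighbouring transcripts are therefore not independent of each other.

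SMAD1 held the largest of these differences. The assembled transcript TCONS_00108423 took 39.9% of SMAD1 counts in NC (37.5 to 42.3%), 3.19% in GAS5 (2.37 to 4.20%) and 14.7% in siYAP (12.8 to 16.7%). Another assembled transcript, TCONS_00108422, took 0.15% in NC, 36.1% in GAS5 and 18.7% in siYAP, and TCONS_00108430 had 0 counts in NC and GAS5 and 47.8 in siYAP. Summed, the 3 assembled transcripts held shares of 40.1%, 39.3% and 40.7% of SMAD1 counts, so that their sum kept nearly the same share in all groups while its parts did not. ENST00000515385 had a mean count of 21.1 in NC, 0 in GAS5 and 2.87 in siYAP. ENST00000302085, the most abundant over the 3 groups, had 275, 314 and 257.

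SMAD5 was carried by ENST00000545279 and ENST00000545620, which have the same coding length of 1395 bases. ENST00000545279 had mean counts of 1431 in NC, 1014 in GAS5 and 1319 in siYAP, and ENST00000545620 had 687, 647 and 256, a log2 fold change of -1.32 in siYAP. The share of ENST00000545620 in SMAD5 counts was 28.9% in NC (27.6 to 30.2%), 34.8% in GAS5 (33.3 to 36.4%) and 14.5% in siYAP (13.3 to 15.7%). In these estimates the lower SMAD5 sum in siYAP sat in this transcript, while in GAS5 it sat in the other. ENST00000545279 is 7012 bases long and ENST00000545620 6937. The intervals of the shares do not cover error in dividing reads between them.

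In BMP4, ENST00000559087 was the most abundant transcript, with mean counts of 2125, 1881 and 2189 in NC, GAS5 and siYAP. ENST00000558984, which had 49.95, 78.6 and 20.6, differed by 0.75 and -1.12 on the log2 scale, and ENST00000558961, with 22.1, 11.2 and 9.03, by -0.76 and -1.05. In BMPR2, ENST00000374580 led with 512, 376 and 477 mean counts, and ENST00000374574 had 17.1, 0 and 35.0, with a log2 fold change of 1.04 in siYAP. In TGFBR2, ENST00000295754 held shares of 74.3%, 66.2% and 85.0%, and no transcript of it was past 2-fold.

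The inhibitory SMADs were read mostly from assembled transcripts. TCONS_00044817 had mean counts of 422, 394 and 604 for SMAD6, while ENST00000288840 had 13.6, 4.03 and 20.6. TCONS_00067023 held shares of 78.4%, 72.8% and 64.5% of the SMAD7 counts. ID genes were simpler. ENST00000376112 held 92.9%, 94.0% and 94.2% of ID1 counts in the same order of groups, ENST00000396290 held at least 99.6% of ID2 counts in every group, and ID3 has the single transcript ENST00000374561, so that the ID gene values do not rest on how reads were divided.

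**Figure D3:**
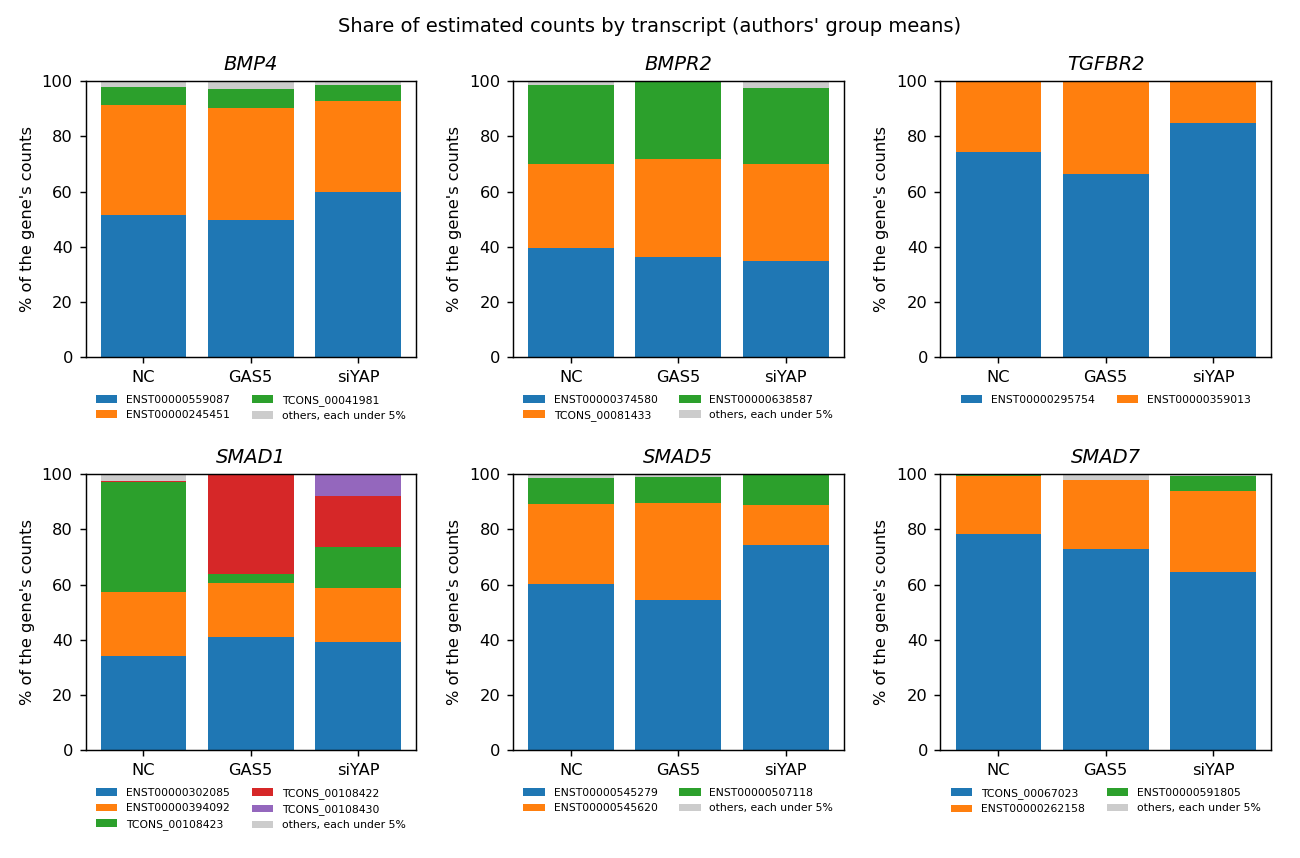
Share of the mean counts of BMP4, BMPR2, TGFBR2, SMAD1, SMAD5 and SMAD7 held by each transcript in NC, GAS5 and siYAP, as stacked bars in percent, with small transcripts pooled in grey. The SMAD1 transcript that held 39.9% in NC held 3.19% in GAS5, and the SMAD5 transcript that held 28.9% in NC held 14.5% in siYAP.

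The rest of the pathway was read in lists of ligands, receptors, inhibitors and targets, described by counts and medians. Values are log2 fold changes of gene sums against NC, and where a pair is given the GAS5 value comes before the siYAP value. BMP4 held the most counts of any ligand. Of 12 BMP ligand genes 4 were tested and 5 were at 0 in every group, and 0 were past 1.5-fold, with medians of -0.15 in GAS5 and 0.05 in siYAP. BMP8A and BMP8B are near-identical copies between which reads are hard to divide, so that the value of BMP8B, the ligand with the next most counts, at -0.21 and -0.22, is uncertain. Of 10 BMP and activin receptor genes 7 were tested, with medians of -0.17 and 0.08. Only ACVR2B, a type II receptor, was past 1.5-fold, at 0.60 in siYAP (-0.15 in GAS5), and BMPR1A, a type I receptor, stood at -0.16 and -0.44.

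Extracellular antagonists, which hold ligands away from their receptors, had 4 of 12 genes tested and 0 past 1.5-fold, with medians of 0.11 and 0.34. NBL1 stood at 0.33 and 0.38, and TWSG1 at -0.11 and -0.31. All 8 SMAD genes were tested, with medians of -0.09 and 0.02, and SMAD6 alone was past 1.5-fold. SMAD2, at -0.28 and -0.18, and SMAD3, at -0.15 and 0.24, the SMADs of the TGF-beta branch, held the most counts. Of 15 regulators of SMADs 14 were tested, with medians of -0.13 and -0.12. BAMBI, a receptor decoy that lacks a kinase, was past 1.5-fold in siYAP at 0.80 (0.59 to 1.02) and stood at 0.14 in GAS5. The ubiquitin ligase SMURF2 stood at -0.35 and 0.02, and the deubiquitinase USP9X at -0.26 and -0.10.

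BMP target genes stood higher as a list in siYAP. The list was chosen with earlier results of these data known, so its counts are a description and not a test. Of 14 genes 9 were tested, 5 of which are SMAD6, SMAD7, ID1, ID2 and ID3, and 9 of the 9 were above 0 in siYAP, where 49.95% of all genes tested were. Their median was 0.44, with a range from 0.32 to 0.80. In GAS5, 6 of the 9 were above 0 and the median was 0.07. The 4 other genes had medians of 0.29 in GAS5 and 0.56 in siYAP. They were BAMBI, MSX1 at 0.07 and 0.71, MSX2 at 0.43 and 0.32, and DLX2 at 0.82 and 0.40, the last 3 being homeobox genes. Past 1.5-fold were BAMBI, MSX1 and SMAD6 in siYAP and DLX2 in GAS5. Neither ID4, ATOH8 and HEY1, which were below the count minimum, nor HAMP and DLX5, which were at 0, entered these counts. Epithelial markers moved the same way in siYAP, with a median of 0.46 over 6 genes and 5 of the 6 above 0. KRT8 and KRT18 stood at 0.46, KRT19 at 0.50, CLDN4 at 0.77 and CDH1 at 0.21, while EPCAM stood at -0.07. In GAS5 the median of these markers was 0.04, with 3 of the 6 above 0. Their part in the result was not tested.

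In the TGF-beta branch the target genes stood higher in siYAP as well. The signalling genes had a siYAP median near 0, with single genes spread from -0.39 to 0.80. Of 14 genes for TGF-beta ligands, receptors and latency proteins 10 were tested, with medians of -0.13 and -0.02. LTBP2 was past 1.5-fold in both comparisons, at 0.99 and 0.80, ACVR1C in GAS5, at -0.64 and -0.39, and LTBP3 and LTBP4, which held the most counts, stood at -0.10 and 0.44 and at -0.16 and 0.27. Of 11 TGF-beta target genes 10 were tested, with medians of 0.19 and 0.52, and 3 were past 1.5-fold upward in GAS5 and 5 in siYAP, where 2.55% and 2.94% of all genes tested were. COL1A1, a fibrillar collagen gene, stood at 0.67 and 0.60, and the cell cycle inhibitors CDKN1A and CDKN2B at 0.37 and 0.92 and at -0.00 and 0.75. TGIF1 stood at -0.25 and 0.13, PMEPA1 at -0.21 and 0.32, and SKIL at -0.16 and -0.23. Above 0 were 5 of the 10 target genes in GAS5 and 9 in siYAP, where 50.2% and 49.95% of all genes tested were. SMAD6, SMAD7, BAMBI, LTBP2, TGIF1, PMEPA1 and SKIL are in more than 1 list of the pathway, and COL1A1 is also among the fibroblast markers. Of 7 genes for partners of ID proteins and other basic helix-loop-helix factors 4 were tested, with medians of -0.02 and 0.26, and 0 were past 1.5-fold. TCF3 stood at 0.10 and 0.19, TCF12 at -0.32 and -0.42, HES1 at 0.05 and 0.49, and MYC at -0.09 and 0.33.

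**Figure D4:**
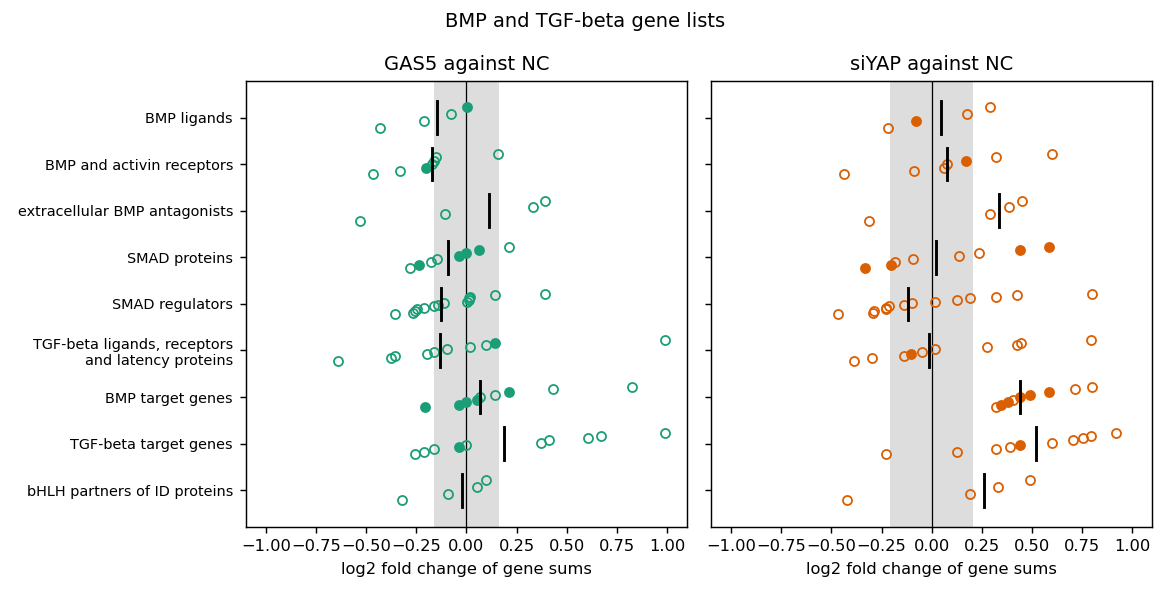
Log2 fold change against NC of each gene tested in 9 lists of the pathway, in GAS5 (left) and siYAP (right), with filled points for the 10 genes, open points for other genes, black bars for list medians and grey bands for the middle 50% of all genes tested. All 9 BMP target genes lie right of 0 in siYAP, and the lists of ligands and SMAD proteins spread over both sides.

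Values in siYAP moved with the GC content of transcripts. In 5 classes of rising GC content, which held 98.7% of the genes tested, the median siYAP log2 fold change was -0.19, -0.15, -0.01, 0.13 and 0.24, and in GAS5 it was -0.05, -0.04, -0.01, 0.04 and 0.07. SMAD6, SMAD7, ID1 and ID3 were in the next to highest class, and ID2, with a GC content of 44.2%, was in a class with a negative median. Against the median of their own class the siYAP differences were 0.45 for SMAD6, 0.31 for SMAD7, 0.25 for ID1, 0.64 for ID2 and 0.21 for ID3, so that ID2 was then past 1.5-fold and SMAD6 was not. For SMAD6 and SMAD7 the GC content is that of an Ensembl transcript that held few of the counts. SMAD5, of low GC content, moved from -0.33 to -0.14 and BMPR2 from 0.17 to 0.37. All 9 BMP target genes stayed above 0 after the subtraction, with a median of 0.34, while in GAS5 5 of the 9 did, with a median of 0.01. The same subtraction moved the siYAP median of the TGF-beta target genes from 0.52 to 0.33, that of the extracellular antagonists from 0.34 to 0.10 and that of the basic helix-loop-helix factors from 0.26 to 0.08. It moved the siYAP median of the receptors from 0.08 to 0.21, that of the SMAD genes from 0.02 to 0.18 and that of the SMAD regulators from -0.12 to -0.01. Values also moved with transcript length, in GAS5 more than with GC content. In 5 classes of rising length the GAS5 median was 0.10, 0.05, 0.01, -0.04 and -0.11. In siYAP it was 0.09, 0.04, -0.00, -0.04 and -0.08. Against the median of their length class the GAS5 differences were -0.12 for SMAD5, -0.09 for BMPR2 and 0.11 for ID3. Those of ID2 and TGFBR2 grew, to -0.30 and 0.18. The parts of GC content and length in the differences of single genes were not tested.

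**Figure D5:**
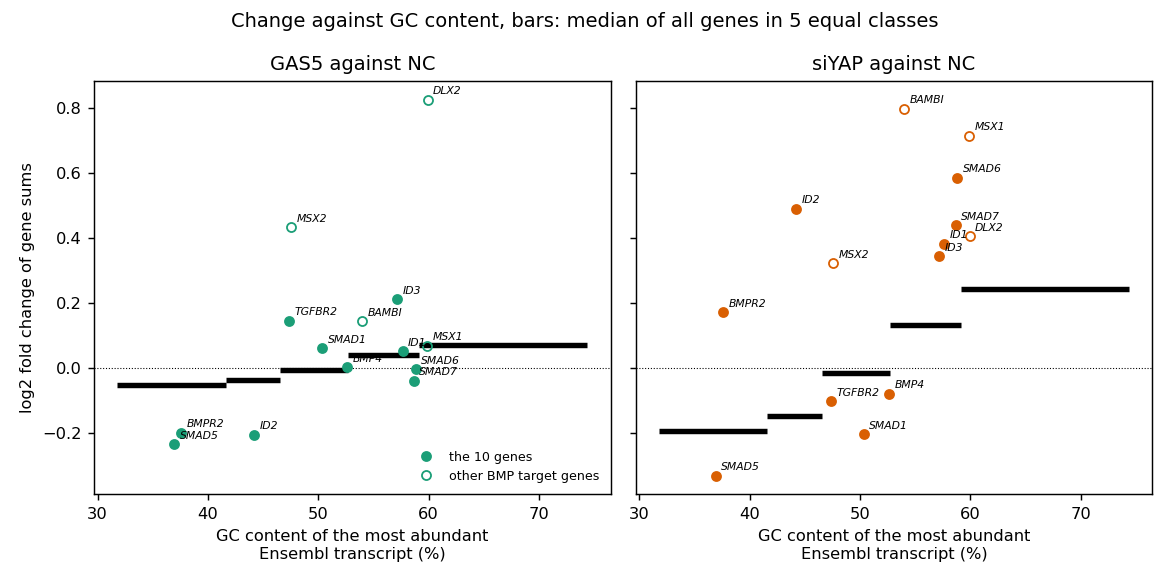
Log2 fold change against NC by GC content of a transcript in percent, in GAS5 (left) and siYAP (right), with filled points for the 10 genes, open points for other BMP target genes and black bars for the median of all genes in each of 5 classes. The siYAP medians run from -0.19 to 0.24, and ID2 stands 0.64 above the median of its class.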

How the data were processed

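Strand-specific libraries from HCT116 cells were made by the authors in 3 groups of 2 libraries. The deposited expected counts are estimated counts per mRNA transcript, for which the authors took the mean of each group's libraries. The deposited FPKM values were averaged the same way, with 0 written as 0.001. TopHat2 2.1.1 is named in the submitters' processing notes, and the counting tool, its strand setting and the genome build are not given in the sources used here. The deposited tables also hold the authors' fold changes, p-values and adjusted p-values, which were not used.

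Both tables were joined by transcript, and counts were summed by symbol. The 339 transcripts without a symbol, with between 0.195% and 0.224% of the counts, were left out. Sums were scaled by TMM (edgeR 4.0.16, R 4.3.3) over genes whose counts averaged 50 or more in the 3 groups, and log2 ratios were taken with a prior count of 2. Intervals came from scipy 1.17.1 on the counts of both libraries of a group, estimated counts being rounded. Since the tables hold 1 mean per group, neither edgeR's quasi-likelihood test nor a DESeq2 test could be fitted, and a gene was counted when past 1.5-fold. The steps were tested on simulated data. Positions come from GENCODE 29 and promoters from RefSeq, matched by symbol, and transcripts were matched by identifier (42 of 42).

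The genes and lists were chosen with earlier results of these data known. Named from the lists are genes past 1.5-fold and the 2 with the most counts in each list, and from the transcripts those past 2-fold with at least 20 mean counts and the most abundant of each gene. Members of the lists named beside these, such as MSX2 and marker genes, were chosen after their values were seen. Alternatives were DESeq2 size factors (DESeq2 1.42.0), total counts, no low-count filter, a prior count of 0.5, the ratio of summed FPKM (pseudocount 0.01) and Ensembl transcripts only. Subtraction of the GC class median was added after the data had been seen. The values of 1 gene of the TGF-beta target list are not reported here, and the counts and median of that list include it.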

Additional observations from a re-analysis of the deposited data

How the results depend on the processing

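No paired analysis was possible because only group means, 1 per group, were deposited in the tables used here, and for the same reason no library could be left out in turn. The number of genes past 1.5-fold in GAS5 was 0 under every alternative run. In siYAP it was 1 with TMM, and it was 0 with total count scaling, 0 with no filter on low counts and 0 with the ratio of summed FPKM, where SMAD6 stood at 0.54, 0.58 and 0.32 against 0.59 with TMM. It was 1 under the other 4 alternatives, where the gene was SMAD6 with DESeq2 size factors and the smaller prior count, SMAD7 with Ensembl transcripts only and ID2 with the GC class median subtracted. Of 140 values of single genes, 119 stayed within the interval of counting error, 21 did not and 6 changed sign. BMP4 in GAS5 accounted for 5 of these, between -0.04 and -0.00, and SMAD7 in GAS5 for the other, 0.27 with Ensembl transcripts only. Over all alternatives the siYAP value ran from 0.25 to 0.39 for ID1, from 0.44 to 0.64 for ID2, from 0.21 to 0.35 for ID3, from 0.13 to 0.59 for SMAD6 and from 0.31 to 1.11 for SMAD7. With Ensembl transcripts only, 936 genes in GAS5 and 1290 in siYAP were past 1.5-fold, against 541 and 849 with all transcripts, and with the GC class median subtracted 523 were in siYAP. The median of the TGF-beta target genes in GAS5 moved from 0.19 to 0.31 with the ratio of summed FPKM and to -0.01 with Ensembl transcripts only. Under the latter, the median of the BMP target genes moved from 0.07 to 0.20 in GAS5 and from 0.44 to 0.40 in siYAP. That of the SMAD genes in GAS5 moved from -0.09 to -0.22. Counts between 158 and 225.5 limit the precision of SMAD7 most, and the spread between cultures is unknown for every gene.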

Other observations

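Set directly against each other, siYAP stood above GAS5 for 6 of the 10 genes. Over all genes tested the median log2 ratio of siYAP to GAS5 was -0.01, with quartiles of -0.25 and 0.22. The share of all genes tested above 0 was not computed, so the count of 6 does not set the 10 genes apart. Among the 10, ID2 had the highest log2 ratio, 0.69 (exact 95% interval of counting error 0.64 to 0.76), above that of 96.4% of the genes tested. SMAD6 stood at 0.59 (0.46 to 0.72), SMAD7 at 0.48 (0.27 to 0.70), BMPR2 at 0.37 (0.29 to 0.45), ID1 at 0.33 (0.31 to 0.35) and ID3 at 0.13 (0.09 to 0.17). SMAD1, TGFBR2, SMAD5 and BMP4 stood lower in siYAP than in GAS5, at -0.26, -0.25, -0.10 and -0.08. These ratios do not hold the NC count of a gene, but TMM scaled both groups with NC as the reference. No test of them was possible. They set cells given an siRNA against cells given a plasmid, and an effect of what was delivered cannot be told apart.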
